A study of Homo sapiens with 12 samples.

Results

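The genes of the cytosolic ribosomal proteins were followed in OVCAR-3 cells, an established line of ovarian adenocarcinoma cells, after 6 h of treatment. They were taken by name: gene symbols that start with RPL or RPS, go on with a number and end there or with A, X or L, together with RPLP0, RPLP1, RPLP2 and RPSA. The rule found 81 of the 28035 genes in the table, 48 of the large subunit and 33 of the small subunit. Counts of members below cover the 78 (47 large, 31 small) whose 12 libraries averaged 100 normalized reads or more. The other 3 had lower means, among them RPL3L, the striated muscle form of RPL3, at 3.01 normalized reads.

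The cells, labelled as wild type, came in 4 groups of 3 libraries each: DMSO, the solvent control; FC-A, which is fusicoccin A, a fungal compound that holds 14-3-3 proteins on their partners; IFNa, the cytokine interferon alpha; and the Combination of FC-A with IFNa. The sources used here give no doses, and all groups are the same single cell line. The study asks how IFNa and FC-A act together on these cells. Because nothing in the labels says that the 3 libraries of a group came from separate cultures, the p-values measure the spread between these libraries, which may be technical.

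A ribosome holds about as many copies of each of its proteins as of its RNA, so cells make these proteins together and in large amounts. Their mRNAs are known as TOP mRNAs: they begin with a C followed by an unbroken run of pyrimidines, and this start lets the kinase mTOR, through the RNA-binding protein LARP1, switch their translation and protect them while they wait. Interferons are known to restrain protein synthesis in cells that prepare for a virus.

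The starts of 9 members are shown because this shared feature is the one the family is known for, and because these members cover the range of responses described next. Each sequence runs 5′ to 3′ from 15 bases before the RefSeq start to 15 bases from it (build GRCh38.p14), and capitals mark the pyrimidine run at the start. RPL13A (chr19:49487593-49487622, plus strand), RPL3 (chr22:39319609-39319638, minus strand), RPS6 (chr9:19380222-19380251, minus strand) and RPS3A (chr4:151099613-151099642, plus strand) were among the members lowest after IFNa. RPL38 (chr17:74203663-74203692, plus strand) and RPL39 (chrX:119791616-119791645, minus strand) were among those with the smallest differences, and RPL36A (chrX:101390996-101391025, plus strand) was the 1 member called higher. RPS27 (chr1:153990747-153990776, plus strand) and its paralog RPS27L (chr15:63157463-63157492, minus strand) form a pair with and without the run.
RPL13A: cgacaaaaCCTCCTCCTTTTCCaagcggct
RPL3: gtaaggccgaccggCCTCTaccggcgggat
RPS6: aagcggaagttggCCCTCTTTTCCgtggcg
RPS3A: cgactcccacttccgCCCTTTTggctctct
RPL38: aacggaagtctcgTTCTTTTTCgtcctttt
RPL39: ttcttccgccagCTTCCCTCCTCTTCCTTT
RPL36A: tttgcctcgcggTTTCTTTCTTTCCgcgcc
RPS27: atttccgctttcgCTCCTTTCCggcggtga
RPS27L: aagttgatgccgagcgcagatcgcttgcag

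The RefSeq promoter table held 63 of the 78 members. In 46 of them the start base was C, and 42 (66.7%) had a C followed by at least 4 more pyrimidines, against 4.04% of all 27305 promoters in the table and 5.16% of the promoters of the genes tested. RPS27L began with G and had no such run. By the response to IFNa described below, 20 of the 26 matched members that were called lower had it (76.9%), and 22 of the 37 that were not (59.5%), a difference that was not tested. RPL38 and RPL39 carried it, while RPL3 had 4 pyrimidines from its listed start base on, in a run of 5 that begins 1 base before it.

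The libraries held 31.2 M to 39.5 M reads in genes. Members were high throughout: in DMSO, per kilobase of coding sequence, RPS16 stood highest at 298402 normalized reads, followed by RPS2, which forms the mRNA entry channel with RPS3, at 244146 and RPS3 itself at 183845. The lowest of those counted were RPL17 at 316, RPL36A at 325 and RPS10 at 395 per kilobase, and these 3 share their locus with an annotated read-through gene in GENCODE release 29. Sums of the 8 ovarian epithelial markers were 319235 to 423207 normalized reads in single libraries. Markers of immune cells (5 of 7 listed) summed to 194.8 to 312.8, and of the 3 with enough reads to test none was called in IFNa against DMSO. PTPRC was near the threshold, though (adjusted p = 0.0507), and called higher with quantile scaling. A marker of this list was also called higher in several other fits, among them edgeR, the replicate block and the compared groups only. CSF1R was called lower in the Combination against FC-A (log2 fold change -0.74, adjusted p = 0.0262). The 6 fibroblast markers went from 857.2 to 935.1 in DMSO to 1422 to 1935 with IFNa, and the 3 endothelial markers of 4 from 285.7 to 359.5 to 193.1 to 253.2, sums far below those of the members. COL1A1 made up most of the fibroblast sum, while COL3A1, DCN, LUM and PDGFRB had means under 10 normalized reads. Of the 2 fibroblast markers with enough reads to test, 1 was called higher and 1 lower in IFNa against DMSO. The split was the same in the Combination against FC-A, so the list did not rise as a whole. Whether these shifts have a part in the results was not tested.

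After IFNa the family took a smaller share of the RNA. Reads in the 81 genes made up 7.65%, 7.44% and 7.72% of the reads in the 3 DMSO libraries and 7.33%, 7.68% and 7.70% with FC-A. They made up 6.00%, 6.13% and 5.96% with IFNa and 6.05%, 5.91% and 5.99% in the Combination. The 6 libraries with IFNa therefore lay below all 6 without it, while DMSO and FC-A overlapped, as did IFNa and Combination. In bulk RNA, less of these mRNAs in every cell and a change in fewer cells cannot be told apart.

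A share depends on what else is read. The 928 genes that rose at least 2-fold with IFNa held 2.503% ± 0.0516 of reads in DMSO (SD, n = 3) and 10.3% ± 0.180 with IFNa. With their reads left out, the members held 7.80% ± 0.146 in DMSO, 7.76% ± 0.204 with FC-A, 6.73% ± 0.0914 with IFNa and 6.73% ± 0.0739 in the Combination. The drop was smaller on this base and the libraries with and without IFNa still did not overlap. Both subunits' genes held less: the large held 3.996% of reads in DMSO and 3.14% with IFNa, the small 3.61% and 2.89%.

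**Figure D1:**
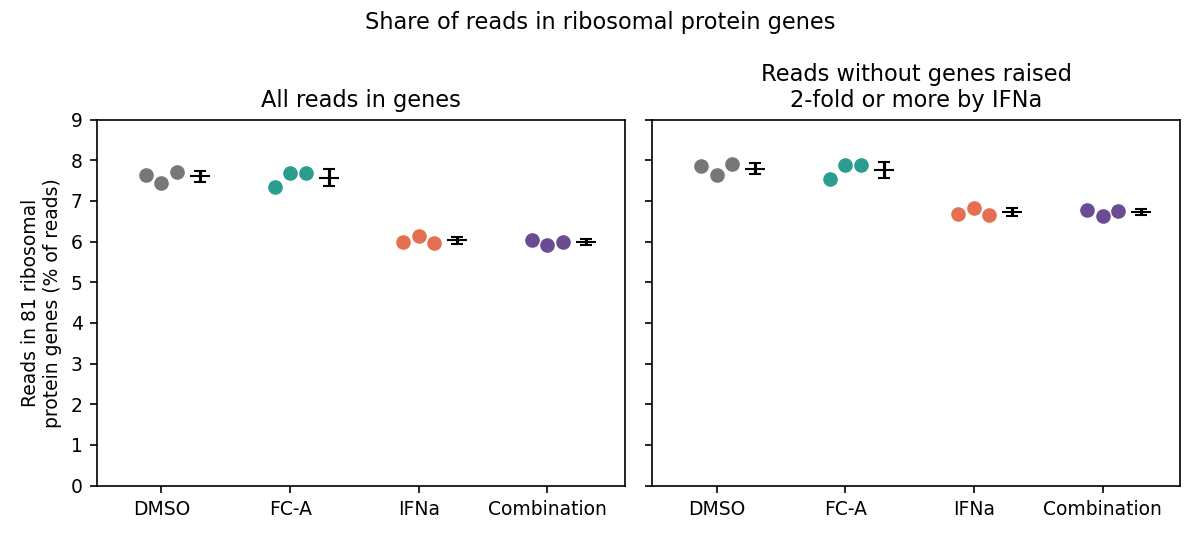
Share of reads in the 81 ribosomal protein genes (vertical axis, percent of reads in genes), by group, over all reads in genes (left) and without the reads of the genes that rose at least 2-fold with IFNa (right). Each point is a library and the black marks are the mean ± SD of 3 libraries; all 6 libraries with IFNa lie below the 6 without it in both panels, from 5.91% to 6.13% on the left.

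On the study's normalized scale, which sets the typical gene and not the total equal between libraries, many members were lower with IFNa by a small amount. Compared with DMSO, 34 of the 78 members were lower, 1 was higher and 43 did not pass (limma, adjusted p under 0.05). Of all 15990 genes tested, 46.9% were called in this comparison, 21.5% lower and 25.4% higher, so the 43.6% of members called lower stood beside 21.5%. Among strongly read genes, those averaging 5000 normalized reads or more, 12.3% were called lower, against 33 of the 71 members at that level. The median log2 fold change of the members was -0.12, that of all genes -0.01, and 75 of the 78 members had a negative value. The called falls ran from 7.98% to 22.9%, and 4 of them reached 1.2-fold.

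The count moved with the control libraries. It was 18 without DMSO replicate 1 and 20 without DMSO replicate 3, each with 1 member higher, and 53 (52 lower) with DESeq2. The median stayed between -0.15 and -0.09 over the 12 fits that left out a library. Scaling to equal totals, which shifts the median of all genes to -0.20, gave 75 members lower, and quantile scaling, which shifts it to -0.10, gave 73. The members' median was then -0.31 and -0.38, that is -0.12 and -0.28 relative to all genes, and of all called genes 25.5% and 36.6% were higher in place of 54.2%. In each of these scalings at least 75 of 78 members had negative values. The share of all genes called lower in these other fits is not given here. Their counts cannot be set beside the 21.5% of the main fit.

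**Figure D2:**
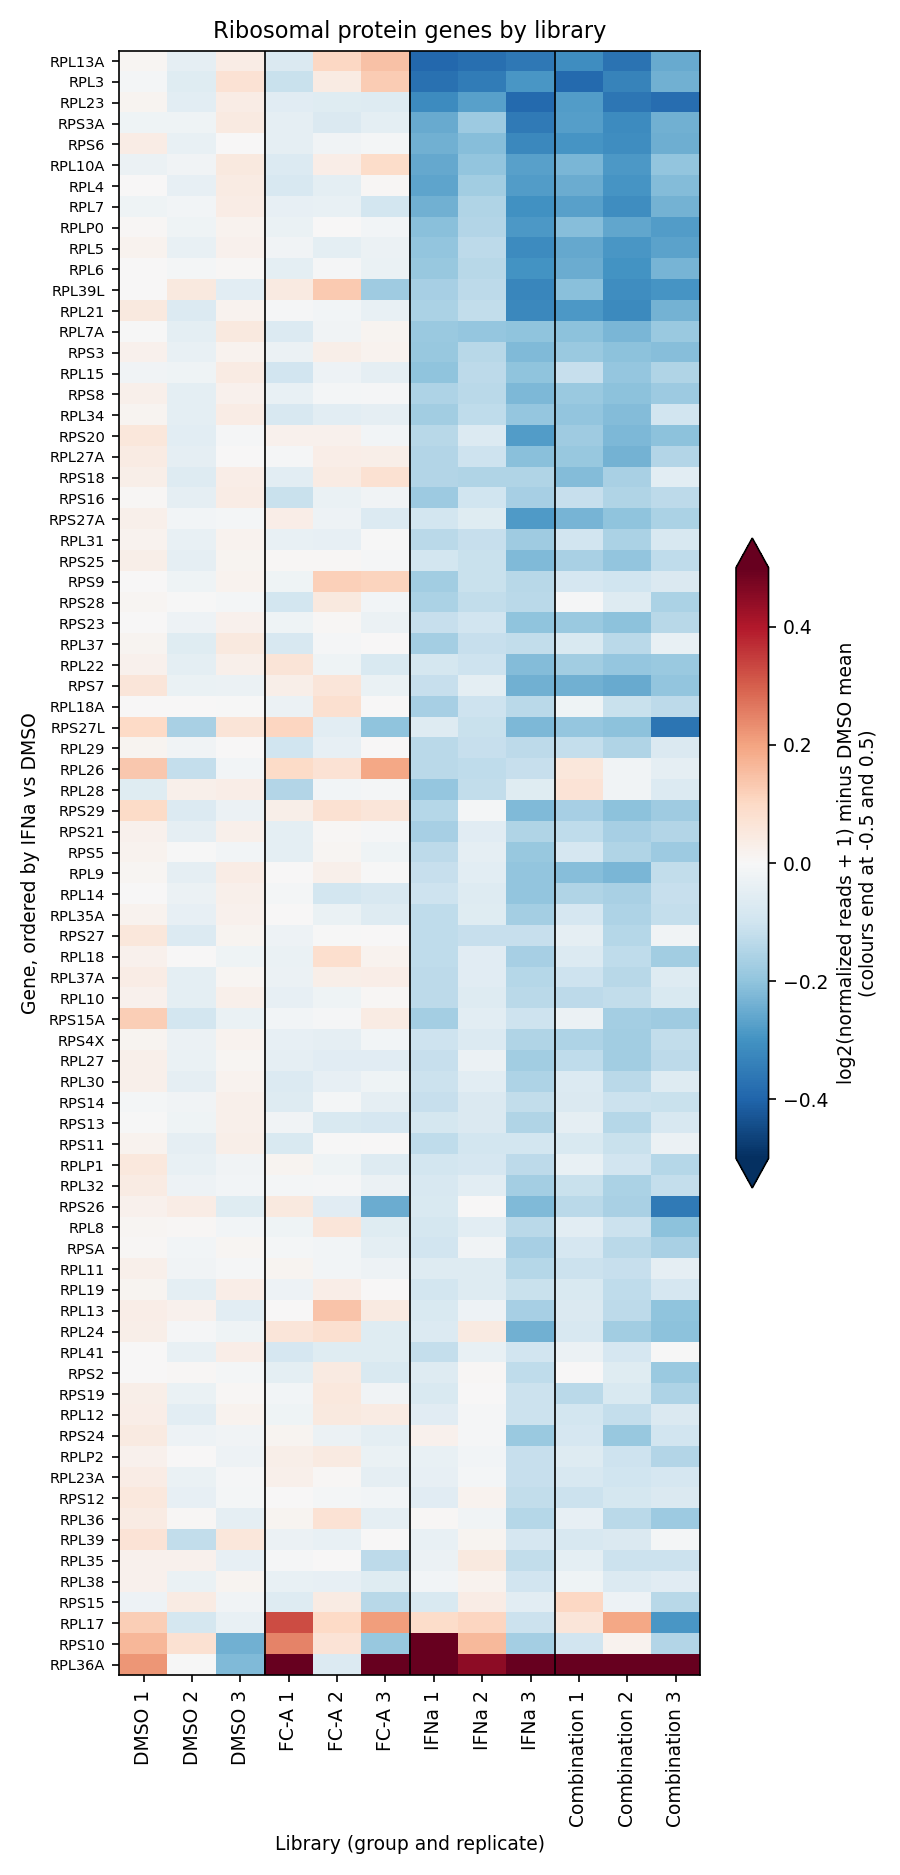
Each row is 1 of the 78 members, ordered by IFNa against DMSO, and each column a library; colour gives log2(normalized reads + 1) minus the mean of the 3 DMSO libraries, blue for lower and red for higher. Blue fills the 6 columns with IFNa for most rows, deepest at the top (RPL13A, RPL3, RPL23), and the bottom rows RPL17, RPS10 and RPL36A are the weakly read ones.

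The large subunit held the deepest single falls, with 22 of its 47 members lower and RPL36A higher. Its median log2 fold change (-0.12) was no lower than that of the small subunit (-0.12). RPL13A, whose protein is also known to silence inflammatory mRNAs after interferon gamma when it leaves the ribosome, gave 44145, 42510 and 44993 normalized reads in DMSO and 33430, 33754 and 34284 with IFNa. With FC-A it gave 41671, 47113 and 48618, and in the Combination 35352, 33990 and 36793. All 6 libraries with IFNa lay below all 6 without it, and the fall with IFNa was 22.9% (log2 fold change -0.38, SE 0.06, adjusted p = 0.000125).

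RPL3, which lies close to the peptidyl transferase centre, gave 61032, 58855 and 64525 in DMSO and 47420, 48218 and 50164 with IFNa, a fall of 20.9% (log2 fold change -0.34, SE 0.07, adjusted p = 0.000747). RPL23, which sits at the face that meets the small subunit, gave 22127, 21165 and 22518 in DMSO and 17621, 18189 and 16771 with IFNa. Its fall of 20.1% had the smallest p of the family (adjusted p = 6.41e-05). In both genes the ranges were far apart, by more than the width of either group. RPL10A, a protein of the L1 stalk, fell by 15.4%, and RPL4 by 15.2%, from 86768 to 91720 in DMSO to 73488 to 79110 with IFNa (adjusted p = 0.002).

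Several members of the large subunit changed less or did not pass. RPL10, which completes the subunit late in its assembly, stood at 32701 to 34472 in DMSO and 30833 to 32330 with IFNa (adjusted p = 0.0566), so the ranges did not overlap but the test was not passed. RPL38, known for its part in the translation of a subset of mRNAs, stood at 12172 to 12668 and 11655 to 12609, and RPL39 at 8080 to 9220 and 8309 to 8878. For both the groups overlapped and the log2 fold changes were -0.03 and -0.04 (SE 0.04 and 0.05). RPL22 did pass, with a fall of 9.01% (adjusted p = 0.0389).

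In the small subunit 12 of 31 members were lower and none was higher. RPS3A, near the mRNA exit, gave 24512, 24497 and 25631 in DMSO and 20882, 21903 and 19477 with IFNa (log2 fold change -0.26, SE 0.05, adjusted p = 0.000568). RPS6, the substrate of the S6 kinases below mTOR, gave 73571, 69952 and 71903 in DMSO and 60838, 61935 and 57356 with IFNa, a fall of 16.4% (adjusted p = 0.000699). With FC-A RPS6 read 69510, 70984 and 71269, within the DMSO range but for the first library, and in the Combination 58450, 57927 and 60685. RPS3, at the mRNA entry, went from 130501 to 136106 to 115081 to 121597 (adjusted p = 0.00979).

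Not all of the strongly read small subunit genes were called. RPS2 stood at 213431 to 215630 in DMSO and 196666 to 215308 with IFNa, overlapping ranges (log2 fold change -0.06, SE 0.07, adjusted p = 0.473). RPSA, the laminin receptor precursor, had an adjusted p of 0.138 and RPS15 of 0.73. RPS27, a zinc finger protein, had a log2 fold change of -0.12 (SE 0.05, adjusted p = 0.0551). Its paralog RPS27L, a p53 target, had -0.13 (SE 0.09, adjusted p = 0.25), with a spread of 674.5 to 810.8 in DMSO alone.

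The stalk, which recruits the translation factors, was split by the test: its base RPLP0 fell by 13.8% (adjusted p = 0.00284), while RPLP1 and RPLP2, which attach to it as dimers, had log2 fold changes of -0.10 and -0.06 and did not pass (adjusted p = 0.11 and 0.329). RPLP0 stood at 65964 to 67812 in DMSO and 54972 to 60475 with IFNa. The difference between the 3 genes was not tested. The 5S particle, made of RPL5, RPL11 and 5S RNA, can bind MDM2 and thereby raise p53 when assembly fails. RPL5 fell by 13.8% (adjusted p = 0.00299) and RPL11 by a value that did not pass (log2 fold change -0.09, adjusted p = 0.0983), although all 6 libraries with IFNa were below all 6 without it. RRS1, an assembly factor that brings this particle into the subunit, rose (log2 fold change 0.24, adjusted p = 0.0434). That call was not made with quantile scaling, equal totals, no filter or no variance trend. Nor was it made without DMSO replicate 1 or 3, IFNa replicate 1 or 2, or Combination replicate 2.

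RPL36A, which shares its locus with an annotated read-through gene, ran against the rest on few reads. Because the counting program and annotation are not named, how reads were assigned to RPL36A could not be checked. It gave 119.7, 102.4 and 87.72 normalized reads in DMSO, 173.4, 139.9 and 209.5 with IFNa, 157.7, 97.56 and 169.2 with FC-A, and 195.3, 177.6 and 158.0 in the Combination. IFNa and DMSO did not overlap, while FC-A overlapped both. The rise with IFNa was 67.2% (log2 fold change 0.74, SE 0.20, adjusted p = 0.0079), and it was not called without replicate 3 of every group (log2 fold change 0.49, adjusted p = 0.0519) nor for the Combination against FC-A (log2 fold change 0.36, adjusted p = 0.162). Its near copy RPL36AL, outside the rule, had a log2 fold change of 0.02 (adjusted p = 0.826). RPL39L, a paralog of RPL39 known for its role in the testis, was lower (from 936.3 to 1006 down to 773.6 to 888.0, adjusted p = 0.0435), with a call that was lost in 6 of the 12 fits without 1 library: DMSO replicate 1, 2 or 3, IFNa replicate 1 or 3, or Combination replicate 2 (adjusted p = 0.0542 to 0.159).

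FC-A alone called no member. Against DMSO 0 of 78 passed, beside 0.3% of all genes (0.144% lower, 0.156% higher), and 0 members had an unadjusted p under 0.05, against 8.61% of all genes; edgeR and DESeq2 also called 0. The members' median was -0.02 with 51 negative values, and the standard error of a member's log2 fold change was 0.05 at the median. The 3 smallest p-values belonged to RPL36A (log2 fold change 0.42, adjusted p = 0.592), RPL26 (0.12, adjusted p = 0.658) and RPL17 (0.21, adjusted p = 0.703). RPL13A was listed at 0.06 (SE 0.06) and RPL3 at 0.02 (SE 0.07).

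With FC-A present in both groups, members were again lower with IFNa. The Combination against FC-A gave 35 members lower and 0 higher, beside 48.9% of all genes called, 22.3% lower and 26.6% higher. The median was -0.12, and 74 of 78 values were negative. RPL13A fell by 22.6% (adjusted p = 0.000129), RPL3 by 20.99% (adjusted p = 0.000668) and RPL23 by 17.6% (adjusted p = 0.000219), followed by RPL39L, RPL21 and RPS6. Without FC-A replicate 2 the count was 23. The median was negative under each of the other 3 scalings as well, from -0.38 to -0.14.

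This comparison shares no library with IFNa against DMSO, so the members' values in both can be set against each other. Both lists hold 24 members called lower, which is 70.6% of the 34 and 68.6% of the 35. Across the 78 members the log2 fold changes had a Pearson r of 0.77 and a Spearman rho of 0.63, and r was also 0.77 without the weakly read RPL36A, RPL17 and RPS10. Members share their libraries, so this is a description across genes. The same overlap and correlation over all genes are not given here, so neither is shown to be particular to the members. In a plain count over libraries, in 35 of the 78 members all 6 libraries with IFNa were below all 6 without it, beside 16% of all genes, and in 0 members they were above, beside 21.8% of all genes.

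**Figure D3:**
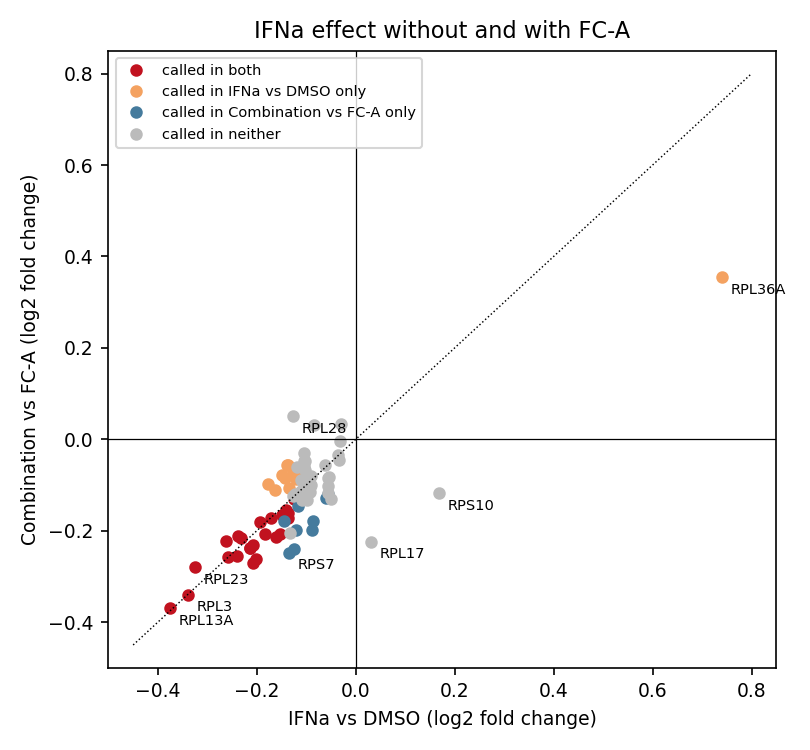
Each point is 1 of the 78 members; the horizontal axis is IFNa against DMSO and the vertical axis the Combination against FC-A, both as log2 fold change, and the dotted line marks equal values. The 24 members called lower in both (dark red) lie along the line down to RPL13A at -0.38 and -0.37.

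Another 10 members were called lower in IFNa against DMSO alone and 11 in the Combination against FC-A alone. Of the latter, RPS7, which can also bind MDM2, was not called in IFNa against DMSO (log2 fold change -0.14, adjusted p = 0.0511) and fell by 15.8% in the Combination against FC-A (adjusted p = 0.00155). RPL28 was called in neither, at -0.13 (adjusted p = 0.0788) and 0.05 (adjusted p = 0.475). The test of the difference between the comparisons, the interaction, called 0 of 78 members and 0 of all genes (background 0%), and 1 member, RPL28 (0.18, SE 0.08), had an unadjusted p under 0.05, against 3.92% of all genes. DESeq2 called 3 genes for the interaction and edgeR 0, none of them a member. None of these members is therefore shown to respond differently to IFNa with FC-A.

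**Figure D4:**
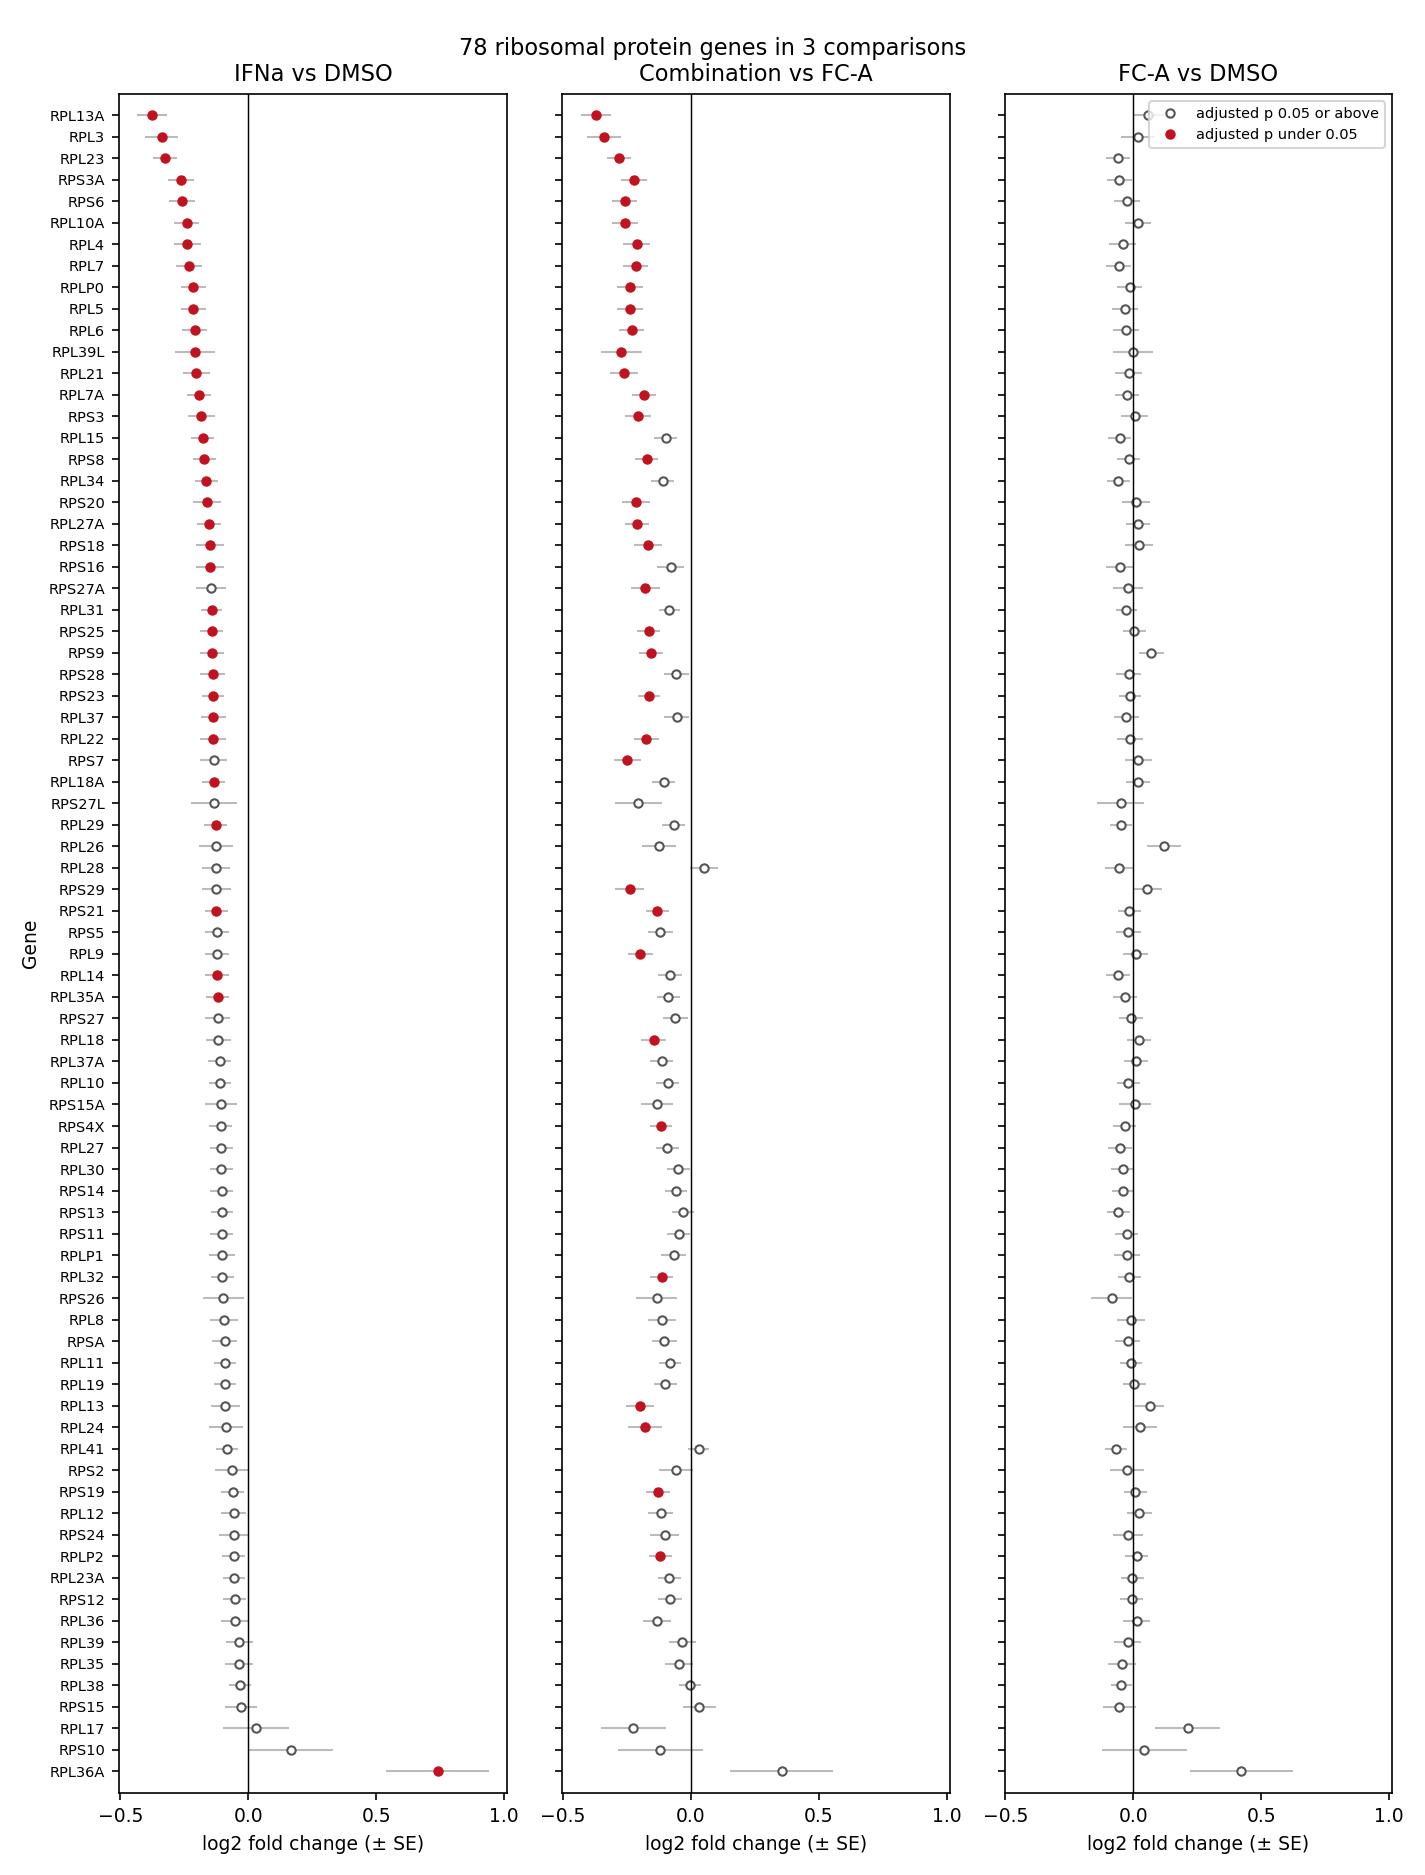
Log2 fold change (horizontal axis, bars ± SE) of the 78 members in 3 comparisons, ordered by IFNa against DMSO; filled red points passed an adjusted p under 0.05. The first 2 panels hold 35 filled points each. The panel of FC-A against DMSO holds none, with most points close to 0 and the weakly read RPL36A and RPL17 further out.

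The Combination against DMSO held 42 members lower and 1 higher (RPL36A), beside 48.3% of all genes called, 22.2% lower and 26.1% higher; it shares the DMSO libraries with IFNa alone. The count was 28 without DMSO replicate 1. RPL23 led with a fall of 21.01% (adjusted p = 3.75e-05), then RPL3 (19.9%), RPL13A (19.4%), RPS6 (17.8%), RPL21 (log2 fold change -0.28) and RPS3A (17.4%). RPSA (8.44%, adjusted p = 0.0442) and RPS27L (16.2%, adjusted p = 0.0332) were called here. Against IFNa alone, the Combination called 0 members, beside 0.331% of all genes (0.194% lower, 0.138% higher), and edgeR and DESeq2 also called 0. Just 1 member had an unadjusted p under 0.05, RPL28 (log2 fold change 0.12, adjusted p = 0.374), against 13.2% of all genes, and the next smallest belonged to RPL26 (adjusted p = 0.441) and RPS7 (-0.09, adjusted p = 0.464). Without replicate 3 of every group RPS7 was called lower (adjusted p = 0.0457). Over all 4 groups the F test passed for 38 of 78 members, beside 54.4% of all genes.

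Members rose and fell together from library to library. Over the 12 libraries the median correlation between 2 members was 0.75, with 94.5% of the 3003 pairs above 0, and for deviations from the group means it was 0.46. The value of 0.75 includes the difference between groups. Neither correlation is given here for all genes, so neither is shown to be particular to the members. In IFNa replicate 2, 72 of the 78 members were above their group mean, in IFNa replicate 3, 67 were below, and DMSO replicate 2 had 65 and Combination replicate 2 had 66 below. These library offsets were small, at most 0.05 on the log2 scale at the median. The 5 other genes most like the members' mean over the 12 libraries were HOXA10-AS (r = 0.98), C17orf58, H3F3A, HSF2 and DANCR (r = 0.97 for the last). DANCR, a noncoding RNA that hosts small nucleolar RNAs, fell by 52.4% with IFNa (adjusted p = 3.19e-07), and H3F3A, a gene for histone H3.3, by 13.9% (adjusted p = 0.0011). These genes were picked by their likeness to a mean that was itself lower with IFNa. Their falls follow from that choice and are a description only.

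Members with longer coding sequences tended to have the lower values. Among the 71 members that averaged 2000 normalized reads or more, the log2 fold change of IFNa against DMSO had a Spearman rho of -0.41 with coding length and -0.29 with the number of exons, and in the Combination against FC-A -0.46 and -0.50. In the shortest group, of 75 to 399 coding bases, 9 of 23 were called lower with IFNa (median -0.11), in the middle group 9 of 25 (median -0.12), and in the longest, of 588 to 1281 bases, 15 of 23 (median -0.18). RPL4 and RPL3, with 1281 and 1209 bases and 10 exons each, are the longest of these. With the level itself rho was -0.28 and -0.20, and the part of length, exon number or level in the result was not tested. These members share their libraries, so no p is given. Of the 28 members with a small nucleolar RNA gene inside them 14 were lower with IFNa (median -0.12), and of the 50 others 20 (median -0.12).

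In the 300 bases from 250 before to 50 after each start, 6 motifs were looked for on both strands. The motif CCGGAAG, that of ETS factors, was in 34.9% of the 63 matched members, in 10.7% of all promoters of that length and in 17.98% of those of genes tested. AAGATGGC, that of YY1, was in 6 members (9.52% against 3.03%, and 5.15% of genes tested), and TATAAA in 5 (7.94% against 11.95%, and 5.71% of genes tested). All 5 with TATAAA, namely RPL3, RPL7A, RPLP0, RPS28 and RPS3, were among the 26 matched members called lower with IFNa, and 5 of the 6 with AAGATGGC. The members with CCGGAAG were 11 called lower and 11 not. A core of the interferon-stimulated response element was in 4 members (6.35% against 3.65%, and 2.85% of genes tested), 3 of them called lower. TTCNNNGAA, that of STAT dimers, was in 2 (3.17% against 7.88% and 6.15%), 1 of them called lower, and CACGTG in 3 (4.76% against 7.43% and 9.89%), 2 of them called lower. CCGGAAG and AAGATGGC share the letters AAG and can overlap. A match describes the letters only, and no difference between these shares was tested.

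Other genes of the ribosome went different ways after IFNa. The lists below were chosen with earlier results of these data known, and are described beside the median of all genes (-0.01) and its 21.5% lower and 25.4% higher calls. Of 44 genes of ribosome assembly 30 rose and none fell (median 0.26), among them WDR43 (log2 fold change 0.62) and NOL6 (0.60), both of the early small subunit particle, the helicase DDX21 (0.57) and the RPL3 chaperone GRWD1 (0.56). Of 14 genes of RNA polymerase I, which makes ribosomal RNA, 10 rose and 1 fell (median 0.29), led by its second largest subunit POLR1B (0.62, adjusted p = 4.63e-07). In the Combination against FC-A, 27 of the assembly genes rose and none fell, and 9 of the polymerase genes rose and 1 fell. With equal totals 12 assembly genes rose and 5 fell there, and with quantile scaling 15 and 4. For the polymerase genes these counts were 3 and 3, and 5 and 3. In the Combination against DMSO 17 assembly genes rose and 1 fell (median 0.12), with 9 rising without DMSO replicate 3 and 11 without Combination replicate 1, and the median turned to -0.07 with equal totals and -0.04 with quantile scaling, where 6 rose and 9 fell under each. In that comparison 9 polymerase genes rose and 2 fell, with equal totals 1 and 4. The counts with IFNa alone also depend on the scaling: with equal totals 11 assembly genes rose and 4 fell and 5 polymerase genes rose and 3 fell in IFNa against DMSO, and with quantile scaling 12 and 4, and 7 and 2. Relative to all genes the assembly list stood at 0.26 and 0.18 under these scalings.

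Other TOP mRNAs had a median near that of the members. Of 15 tested, 4 were lower with IFNa and none higher (median -0.11): the initiation factors EIF4B (-0.31), EIF3F (-0.30) and EIF3L (-0.28) and the elongation factor EEF1A1 (-0.21, adjusted p = 0.0187). With equal totals 13 and with quantile scaling 15 of the 15 were lower. In the Combination against FC-A 8 were lower, 4 without FC-A replicate 2 and 5 without Combination replicate 2 or 3. FAU and GNB2L1, ribosomal proteins that the naming rule leaves out, did not pass (log2 fold changes of -0.08 and -0.07). Of 12 snoRNA host genes of the TOP class 4 rose, with SNHG12 (0.98) and SNHG15 (0.82) ahead, and 3 fell, and the list's median turned from 0.06 to -0.13 with equal totals, -0.08 with quantile scaling and -0.02 without IFNa replicate 3. It was 0.11 without IFNa replicate 2 and 0.03 without DMSO replicate 2, and 1 gene fell without DMSO replicate 1. Of 12 genes that control TOP mRNAs 6 rose and 2 fell: LARP1 itself rose (0.31), as did its relatives LARP4 (0.53) and LARP4B (0.35) and the cap-binding EIF4E (0.32), while DDIT4, an inhibitor of mTOR, fell by 0.40 on the log2 scale and the translation repressor EIF4EBP2 by 0.20. With equal totals 3 of these 12 rose and 6 fell, with quantile scaling 2 and 5.

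The mitochondrial ribosome showed no common direction. Of its 75 proteins tested 12 rose and 14 fell with IFNa (median 0.00), MRPL34 falling by 0.63 and MRPL39 rising by 0.43 on the log2 scale, and with equal totals 4 rose and 44 fell, with quantile scaling 6 and 33. Without DMSO or IFNa replicate 3, 9 fell, and without IFNa replicate 2, 7 rose. Of 36 subunits of respiratory complex I, encoded in the nucleus, 15 fell and 1 rose (median -0.13), a median beside -0.12 for the cytosolic ribosomal proteins, and 29 fell with equal totals and 26 with quantile scaling. Pseudogenes of ribosomal proteins, whose near copies can share reads with the members, took up 279 rows, but their reads were 1.65% of the members' in DMSO. Of the 56 with enough reads 5 were lower and none higher. The most read, RPS2P46, stood at 31123 to 32550 in DMSO and 28646 to 32524 with IFNa (adjusted p = 0.597), and values of RPS2 are uncertain to that extent.

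**Figure D5:**
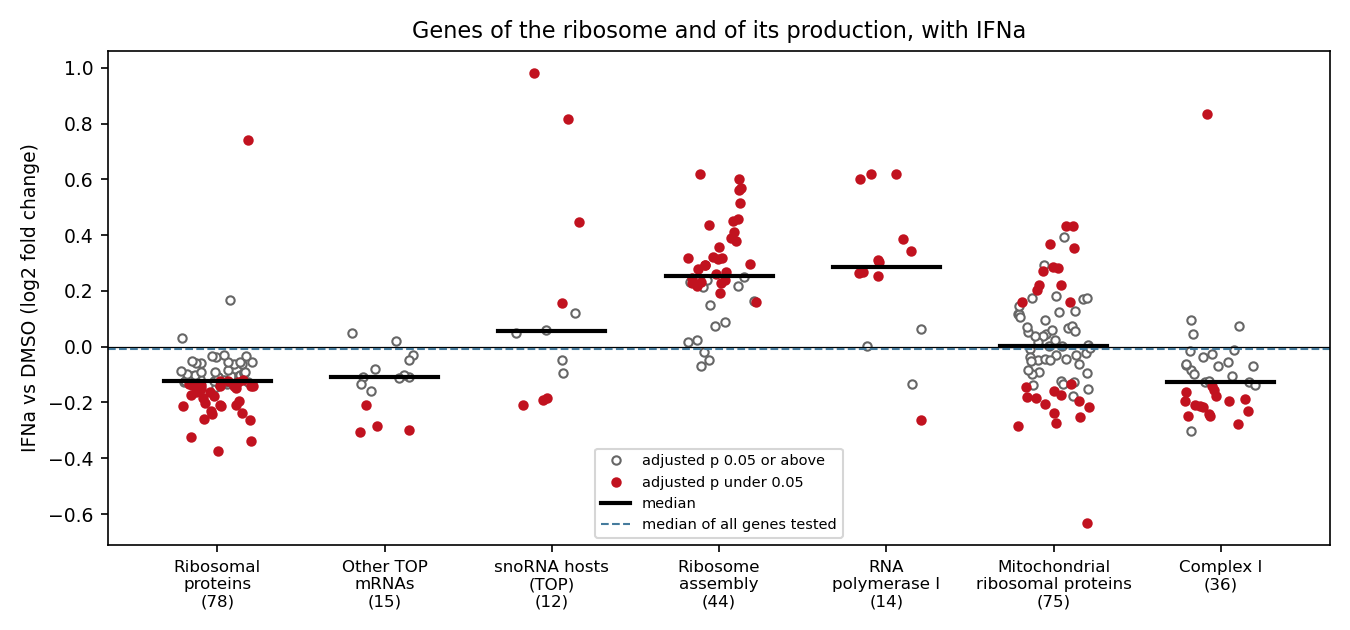
Log2 fold change of IFNa against DMSO (vertical axis) for genes of 7 lists, the number tested in brackets; each point is a gene, red where the adjusted p was under 0.05, black bars are list medians and the dashed line is the median of all genes tested. Ribosomal proteins (median -0.12), other TOP mRNAs (-0.11) and complex I subunits (-0.13) lie below the line. Assembly (0.26) and RNA polymerase I genes (0.29) lie above it, and with equal totals or quantile scaling fewer of them are called.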

How the data were processed

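RNA was measured by sequencing of poly(A)-selected stranded libraries (TruSeq Stranded mRNA, per the labels' protocols) from 12 samples in 4 groups. The signal values are the authors' deposited normalized counts, 1 per gene and library. Multiplied by 1 factor per library they became whole numbers (100% within 0.01), which gave the reads per gene and the depth; they are not per length. The authors' deposited tables give log2 fold changes and p-values in the column layout of DESeq2; that of Combination against DMSO holds means of those groups' own libraries, the others of all 12. Named in the submitters' processing notes are DESeq2 1.24.0, STAR 2.7.3, bcl2fastq 2.20, FastQC and the build hg19; the sources used here do not name the counting program or annotation, so reads of near-identical genes may be split.

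limma 3.58.1 (R 4.3.3) was fitted to log2(value + 1) with a variance trend and 4 group means, over the 15990 genes with a mean of at least 10 (12045 left out). P-values were adjusted by Benjamini-Hochberg over all genes per comparison, with a threshold of 0.05. A fold change on this scale understates that of low genes. The script was tested on simulated data. Alternatives were other pseudocounts (0.5, 8), filters (none, 50) and scalings, compared groups only, a replicate block, left-out libraries, edgeR 4.0.16 and DESeq2 1.42.0 on the recovered reads, and the authors' tables. Up to 6 members per direction and comparison, or the 3 with the smallest p, a fixed set of members, up to 4 genes per list and the 5 genes most like the members were named; others were chosen after their values were seen. The members and lists were chosen with earlier results of these data known. Coding lengths (without the stop codon) and read-through genes come from GENCODE release 29, and sequences from RefSeq. Values of some genes are not reported here.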

Additional observations from a re-analysis of the deposited data

How the results depend on the processing

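None of the named members reversed a call under any alternative run. The sign of members that were not called could change. In IFNa against DMSO, 45 of the 47 large subunit members were negative, and 43 without IFNa replicate 3. The number of members called in IFNa against DMSO (35) was 23 with no filter, 74 with quantile scaling, 76 with equal totals and 53 with DESeq2, and 18 to 43 when 1 library was left out. In the Combination against DMSO (43) it was 74 and 76 with these scalings and 28 to 49 over left-out libraries, and in the Combination against FC-A (35) 74, 76 and 23 to 39. The members' medians with quantile scaling and equal totals were -0.38 and -0.31, -0.39 and -0.32, and -0.38 and -0.32 in these 3 comparisons. FC-A against DMSO, the Combination against IFNa and the interaction had 0 members called in every fit but 1 (1 in the Combination against IFNa without replicate 3), with 0 over left-out libraries. With a replicate block, 53, 52 and 45 members were called in IFNa against DMSO, Combination against DMSO and Combination against FC-A, and 0 in the others; same-numbered libraries deviated together only in part over all genes (r = 0.0176 to 0.395) and over the members (r = -0.16 to 0.82), where IFNa and DMSO gave 0.45, 0.022 and 0.16 and the Combination and FC-A 0.29, -0.16 and 0.23. Since not every pair was above 0.1, the numbers were not taken as pairs. Of the called members 17, 26 and 23 were called in each of the 26 alternatives. The share of all genes called in each of these fits is not given here, so the counts describe the members alone. Without the reads of the genes raised 2-fold by IFNa the members' share was 7.80% in DMSO, 6.73% with IFNa and 6.73% in the Combination. The cause of these differences was not tested. Depth did not limit most members, but RPL36A had 92 to 192 reads per library.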
